A study of Mus musculus with 26 samples.

Results

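The genes described here are 10 members of the pluripotency programme of mouse embryonic stem (ES) cells: Dppa2, Dppa3, Dppa4, Dppa5a, Utf1, Tdgf1, Gdf3, Lefty1, Nr0b1 and Fbxo15. They were chosen by name, as the probe sets whose only gene symbol is one of these, which gave 76 of the 631748 probe sets on the array and 10 of the 18341 genes that could be tested. RNA from 26 mouse samples was measured on an exon array, which carries several probe sets per gene. The labels call every sample an embryoid body cell, an embryoid body being an aggregate in which ES cells differentiate, and give 14 samples the strain 129S2/SvPas and 12 the strain C57BL/6. They name no treatment, time, age, genotype or batch, so the samples are called by their titles, ES1 to ES14 for the first strain and ES15 to ES26 for the second. The sources do not say whether arrays share a culture or an animal. The p-values, SDs and SEs below therefore measure only array-to-array spread within a strain label, which can be technical. That spread also takes in any differences between groups of titles under the same label. The strains follow the title order, so strain and anything that follows that order cannot be told apart.

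These genes have different jobs in early development. Dppa2 and Dppa4 encode paired SAP-domain proteins that bind chromatin and prime genes of the early embryo, Dppa3 protects the methylation of the maternal genome in the zygote, and Dppa5a encodes a KH-domain RNA-binding protein. Utf1 encodes a chromatin-associated factor of undifferentiated ES cells. Tdgf1 encodes Cripto, the membrane-bound co-receptor through which Nodal signals, Gdf3 encodes a ligand of the same TGF-beta superfamily and Lefty1 a secreted Nodal antagonist that Nodal signalling itself induces. Nr0b1 is an X-linked orphan nuclear receptor that restrains other nuclear receptors, and Fbxo15 encodes an F-box protein whose gene is a known target of Oct4 and Sox2 and was an early reporter of reprogramming. As background, naive ES cells express the whole set, whereas the primed epiblast keeps part of it.

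The strain label comparison called all 10 members lower in 129S2/SvPas (limma adjusted p below 0.05 for each) and 0 higher. Of all tested genes, 22.1% were called lower and 21.1% higher, 43.2% in either direction. Gene values are log2 values, each the median over the brighter 50% of the gene's probe sets, so 1 unit is a doubling of signal, and levels are not compared between genes. The median difference, 129S2/SvPas minus C57BL/6 as labelled, was -3.03 over the members and 0.00 over all tested genes, which moved to -2.90 and 0.13 when each array was centred on its median. Dppa5a had the largest difference, from 10.27 ± 1.78 (SD, n = 12) in the arrays labelled C57BL/6 to 5.36 ± 1.77 (SD, n = 14), or -4.91 ± 0.66 (SE; limma adjusted p = 1.52e-06). Tdgf1 followed at -4.11 ± 0.80 (SE; limma adjusted p = 0.000156) and Utf1 at -3.96 ± 0.67 (SE; limma adjusted p = 2.91e-05). Fbxo15 differed by -3.61, Nr0b1 by -3.52, Dppa2 by -2.54 and Gdf3 by -2.34. These SDs and SEs pool unlike arrays of a label. Among arrays labelled C57BL/6, Nr0b1 was 11.09 to 11.70 in ES21 to ES24 and 4.90 to 6.20 in ES15 to ES20. The smallest differences were those of Dppa3 (-1.80), Lefty1 (-1.74 ± 0.52, SE; limma adjusted p = 0.00803) and Dppa4 (-1.66).

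Which arrays were included changed the call. Without ES13 and ES14 all 10 members were again called lower, from -5.59 for Dppa5a to -1.79 for Dppa3, with 25.2% of all genes called lower. With ES1 to ES12 left out, ES13 and ES14 alone carried the first strain against 12 arrays. In that fit 0 of 10 members passed by limma, as did 0.00545% of all genes. At an unadjusted limma p below 0.05, 0 members were called, beside 1276 of 18341 genes lower and 538 higher. Tdgf1 (1.27 ± 1.29, SE) and Dppa2 (0.80 ± 1.51, SE) had differences above 0, Dppa3 kept its size at -1.84 ± 0.87 (SE; limma adjusted p = 0.516), and Fbxo15 had the lowest, -2.77 ± 1.46 (SE; limma adjusted p = 0.573).

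**Figure D1:**
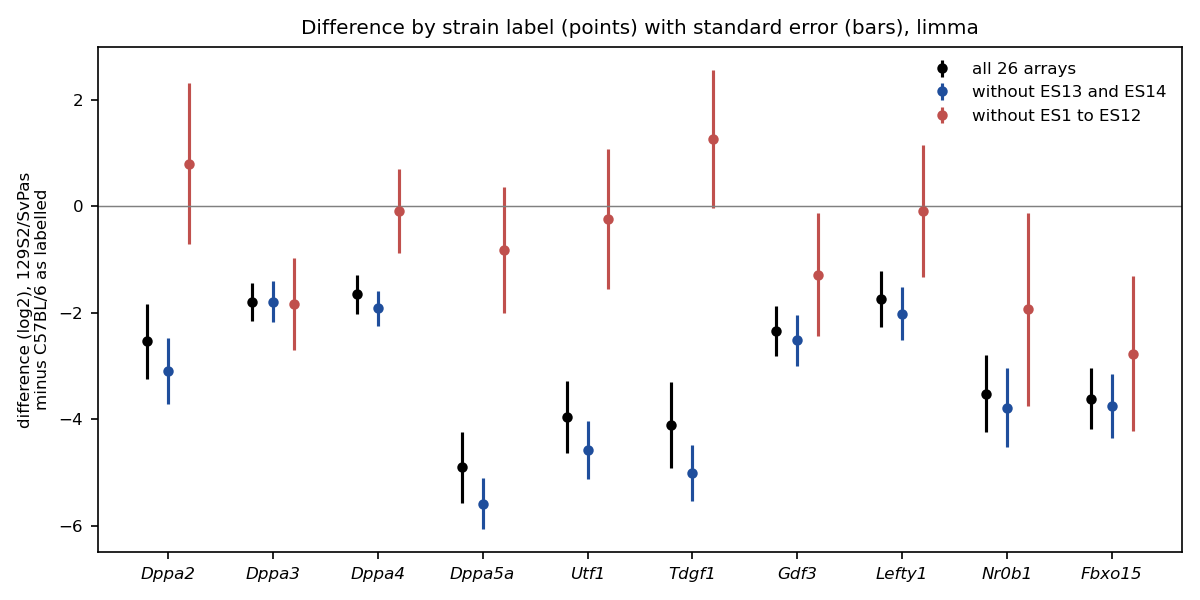
Points show the difference in gene value (y axis, log2, 129S2/SvPas minus C57BL/6 as labelled) for each of the 10 genes (x axis), and bars its standard error, from limma on all 26 arrays (black), without ES13 and ES14 (blue) and without ES1 to ES12 (red). Black and blue points lie below 0 for all 10 genes, while the red ones reach 1.27 for Tdgf1.

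Markers of other cells differed with the titles. ES1 to ES12 had the highest mean over 9 neutrophil and myeloid markers, 10.70 to 12.23, against 5.31 to 6.94 in ES13 to ES26, and the lowest mean over 6 naive ES cell markers, 6.25 to 6.85, against 10.33 to 10.79 in ES21 to ES24. The naive mean was 7.09 to 7.50 in ES13 and ES14, 7.07 to 8.39 in ES15 to ES20 and 7.47 to 8.09 in ES25 and ES26. ES1 to ES12 thus carry the embryoid body label with myeloid markers high and the mean of naive ES cell markers low. Among the naive markers, Klf2 was not low there, at 9.46 to 10.75 in ES1 to ES12 and 10.40 to 10.57 in ES21 to ES24. By strain label, all 9 myeloid markers were higher in 129S2/SvPas and 5 of 6 naive markers lower. Primitive erythroid markers (5 genes) averaged 9.67 to 11.94 in ES15 to ES20 and 7.08 to 9.88 in ES13 and ES14, against 5.20 to 6.23 elsewhere. Fibroblast and feeder markers (8 genes) averaged 9.87 to 10.30 in ES25 and ES26, 9.21 to 10.61 in ES15 to ES20, 8.49 to 8.81 in ES13 and ES14 and 8.30 to 9.32 in ES21 to ES24. Of these, Thy1 was instead highest in ES1 to ES12 (8.33 to 11.89) and was 4.98 to 5.92 in ES15 to ES20. Thy1, Prrx1, Col1a2, Col3a1 and Twist1 overlapped between ES15 to ES20 and ES21 to ES24. Primitive streak markers (5 genes) averaged 7.89 to 9.57 in ES13 and ES14 and 6.85 to 7.46 in ES21 to ES24, though Gsc and Mesp1 overlapped between these runs. Trophoblast markers (5 genes, Eomes again among them) averaged 8.40 to 8.41 in ES13 and ES14, 7.43 to 7.96 in ES15 to ES20 and 6.42 to 7.03 in ES21 to ES24. Elf5 overlapped between ES13 to ES14 and ES21 to ES24. Visceral and parietal endoderm markers (6 genes) averaged 7.65 to 9.55 in ES15 to ES20 and 7.21 to 7.40 in ES13 and ES14. They averaged 7.03 to 7.32 in ES21 to ES24, 7.40 to 7.47 in ES25 and ES26 and 5.46 to 5.93 in ES1 to ES12. The part of these cells in the values below was not tested, and in bulk RNA fewer cells of a type and less RNA per cell cannot be told apart.

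The title runs ES21 to ES24, ES13 and ES14, ES15 to ES20, ES25 and ES26, and ES1 to ES12 are used below to describe the members. They are not conditions in the labels and were set with results of these data known, so their values carry no test. Every array of ES1 to ES12 lay below every array of ES21 to ES24 for 10 of 10 members, as it did for 15.2% of all genes. The same held for ES13 and ES14 in 10 members (20.3% of all genes), for ES25 and ES26 in 10 members (16.1%) and for ES15 to ES20 in 9 members (12.7%), the exception being Dppa3. To place the arrays in between, each value was expressed as a percent of the span from the median of ES1 to ES12 (0%) to the median of ES21 to ES24 (100%). That span was 7.96 log2 units for Dppa5a, 7.45 for Tdgf1, 7.38 for Nr0b1, 6.97 for Utf1, 6.35 for Fbxo15 and 6.03 for Dppa2, and between 2.83 and 4.64 for Gdf3, Lefty1, Dppa4 and Dppa3. A percent of a log2 span is a place on that scale and not a percent of the signal.

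**Figure D2:**
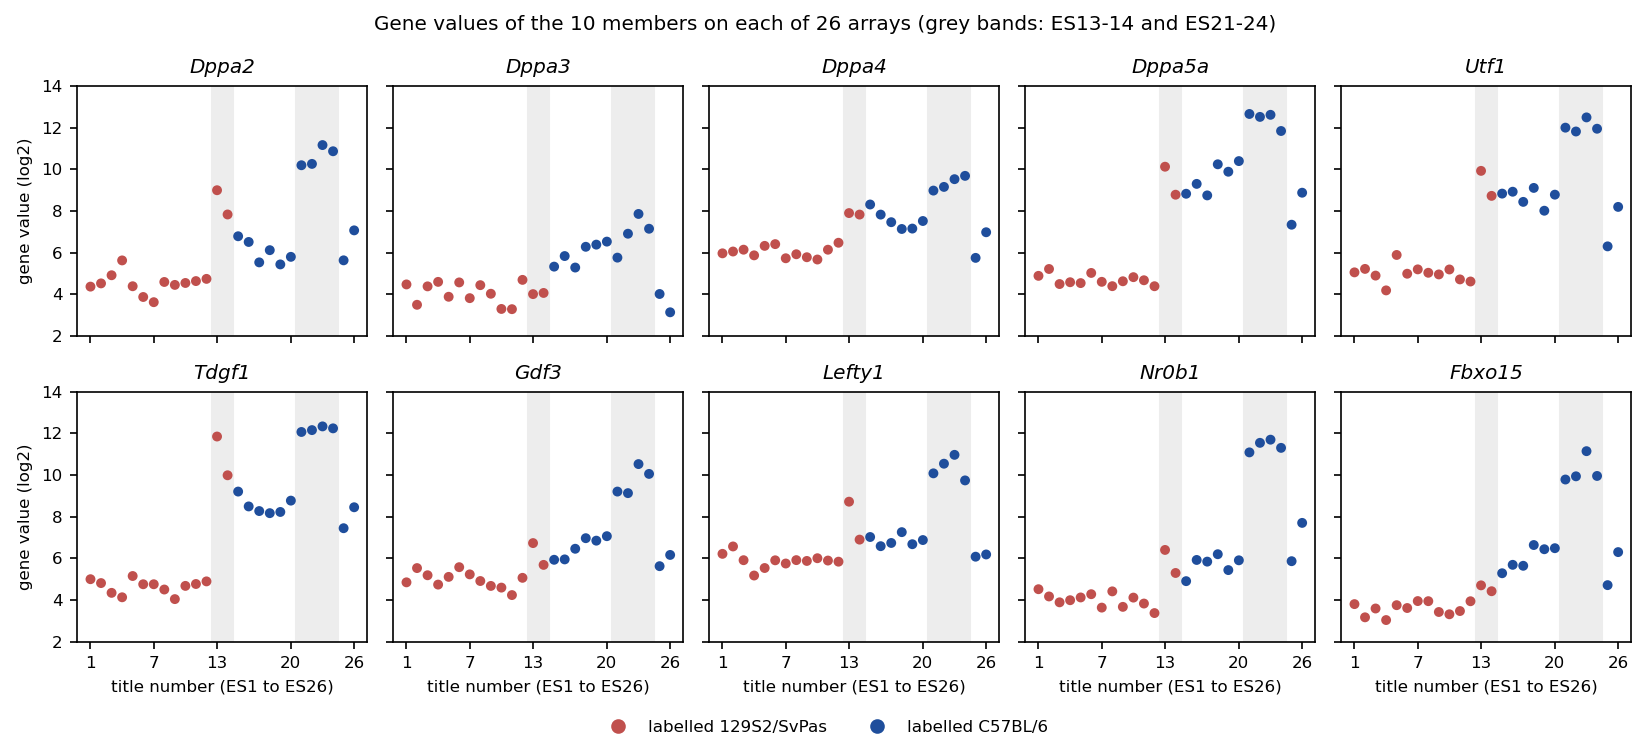
Each panel plots the gene value (y axis, log2) of 1 gene on each array by title number (x axis), red for the arrays labelled 129S2/SvPas and blue for C57BL/6. Grey bands mark ES13 and ES14, and ES21 to ES24, where Tdgf1 lies between 12.07 and 12.34.

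In ES13 and ES14, 5 members (Tdgf1, Dppa2, Utf1, Dppa5a and Dppa4) lay above 50% of the span on both arrays, all below ES21 to ES24. Tdgf1 was 12.07, 12.16, 12.34 and 12.24 in ES21 to ES24, 11.85 in ES13, 9.99 in ES14, 7.45 in ES25 and 8.45 in ES26. In ES15 to ES20 it lay between 8.17 and 9.21 (median 8.38), and in ES1 to ES12 between 4.04 and 5.15 (median 4.75). ES13 thus stood at 95.3% of the span and ES14 at 70.3%, all of ES15 to ES20 were below both, and ES26 fell inside the range of ES15 to ES20.

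Dppa2 was 10.19, 10.26, 11.16 and 10.87 in ES21 to ES24, 8.99 in ES13, 7.83 in ES14, 5.62 in ES25 and 7.06 in ES26. It lay between 5.43 and 6.78 (median 5.95) in ES15 to ES20 and between 3.61 and 5.62 (median 4.53) in ES1 to ES12. ES13 and ES14 stood at 74% and 54.7% of the span and ES15 to ES20 14.9% to 37.4%, so that ES15 to ES20 overlapped ES1 to ES12, whose highest array was at 18.1%. Tdgf1 and Dppa2 were the 2 members with every array of ES15 to ES20 below ES13 and ES14, a pattern of 9.25% of all genes.

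Utf1 was 12.00, 11.81, 12.49 and 11.95 in ES21 to ES24, 9.92 in ES13, 8.72 in ES14, 6.30 in ES25 and 8.19 in ES26. It lay between 8.01 and 9.10 (median 8.81) in ES15 to ES20 and between 4.18 and 5.88 (median 5.00) in ES1 to ES12. ES13 and ES14 (70.6% and 53.3%) overlapped ES15 to ES20 (43.1% to 58.8%), and all of these but 1 array of ES15 to ES20 lay above ES25 and ES26 (18.5% and 45.7%).

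Nr0b1 and Fbxo15 had a different order. Nr0b1 was 11.09, 11.55, 11.70 and 11.31 in ES21 to ES24, 6.40 in ES13, 5.30 in ES14, 5.86 in ES25 and 7.70 in ES26. In ES15 to ES20 it lay between 4.90 and 6.20 (median 5.87), and in ES1 to ES12 between 3.37 and 4.52 (median 4.05). No array outside ES21 to ES24 held more than the 49.5% of ES26, and ES13 and ES14 held 31.9% and 16.9%, within or just above the range of ES15 to ES20. Xist, the X-linked RNA of X inactivation, was 12.00 to 12.43 in ES1 to ES12 and 4.36 to 5.98 in the other 14 arrays, while the Y-linked Eif2s3y was 2.77 to 4.03 in ES1 to ES12 and 7.87 to 10.04 in the others. Sex-linked expression therefore divides the arrays as ES1 to ES12 against the rest, and its part in the value of X-linked Nr0b1 was not tested.

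Fbxo15 was 9.79, 9.94, 11.15 and 9.96 in ES21 to ES24, 4.70 in ES13, 4.42 in ES14, 4.71 in ES25 and 6.30 in ES26. It lay between 5.28 and 6.64 (median 6.06) in ES15 to ES20 and between 3.03 and 3.95 (median 3.60) in ES1 to ES12. Here ES13 and ES14, at 17.3% and 12.9%, were the lowest after ES1 to ES12, with ES25 at 17.5%, and lay below every array of ES15 to ES20. Dppa3 was the other member with that arrangement, which 17.8% of all genes had.

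The sequence before the transcription start is shown for 3 members, since these are in the RefSeq promoter table of GRCm38.p6. They had different places on the span in ES13 and ES14, in that order: Tdgf1 (95.3% and 70.3%), Utf1 (70.6% and 53.3%) and Nr0b1 (31.9% and 16.9%). The 250 bases before the start lie at chr9:110946159-110946408 (minus strand), chr7:139943606-139943855 (plus strand) and chrX:86191525-86191774 (plus strand). Capitals mark matches, searched on both strands, to any of the 5 motifs spelled out after the sequences.
Tdgf1: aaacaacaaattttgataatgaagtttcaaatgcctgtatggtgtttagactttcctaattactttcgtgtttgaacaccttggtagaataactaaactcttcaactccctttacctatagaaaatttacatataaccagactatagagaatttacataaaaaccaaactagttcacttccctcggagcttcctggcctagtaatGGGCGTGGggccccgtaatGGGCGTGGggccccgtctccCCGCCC
Utf1: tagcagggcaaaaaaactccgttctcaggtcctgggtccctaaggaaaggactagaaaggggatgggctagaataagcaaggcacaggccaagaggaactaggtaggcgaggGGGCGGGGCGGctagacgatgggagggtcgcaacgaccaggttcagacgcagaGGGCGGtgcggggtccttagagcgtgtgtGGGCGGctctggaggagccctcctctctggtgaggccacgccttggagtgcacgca
Nr0b1: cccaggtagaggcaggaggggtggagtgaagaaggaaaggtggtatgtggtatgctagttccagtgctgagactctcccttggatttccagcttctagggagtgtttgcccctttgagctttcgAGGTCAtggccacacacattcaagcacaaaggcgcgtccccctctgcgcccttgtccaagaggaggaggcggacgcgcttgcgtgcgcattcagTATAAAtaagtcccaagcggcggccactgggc
The GC box GGGCGG, present in 32.7% of 32851 promoter windows of this length, was found 4 times in Utf1, where the first 2 matches share a base, and once in Tdgf1, on the other strand. The motif GGGCGTGG, a Klf-type site added after the sequences were seen, is in 4.79% of windows and began at positions -45 and -26 of Tdgf1, counted from the start. The nuclear receptor motif AGGTCA, in 14% of windows, began at position -126 of Nr0b1. The TATA box TATAAA, in 12.4% of windows, began at position -32 of Nr0b1. The octamer motif of Oct factors, ATGCAAAT, is in 1.6% of windows and in none of these 3. CG dinucleotides numbered 7 for Tdgf1, 14 for Utf1 and 11 for Nr0b1, against a median of 6.

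**Figure D3:**
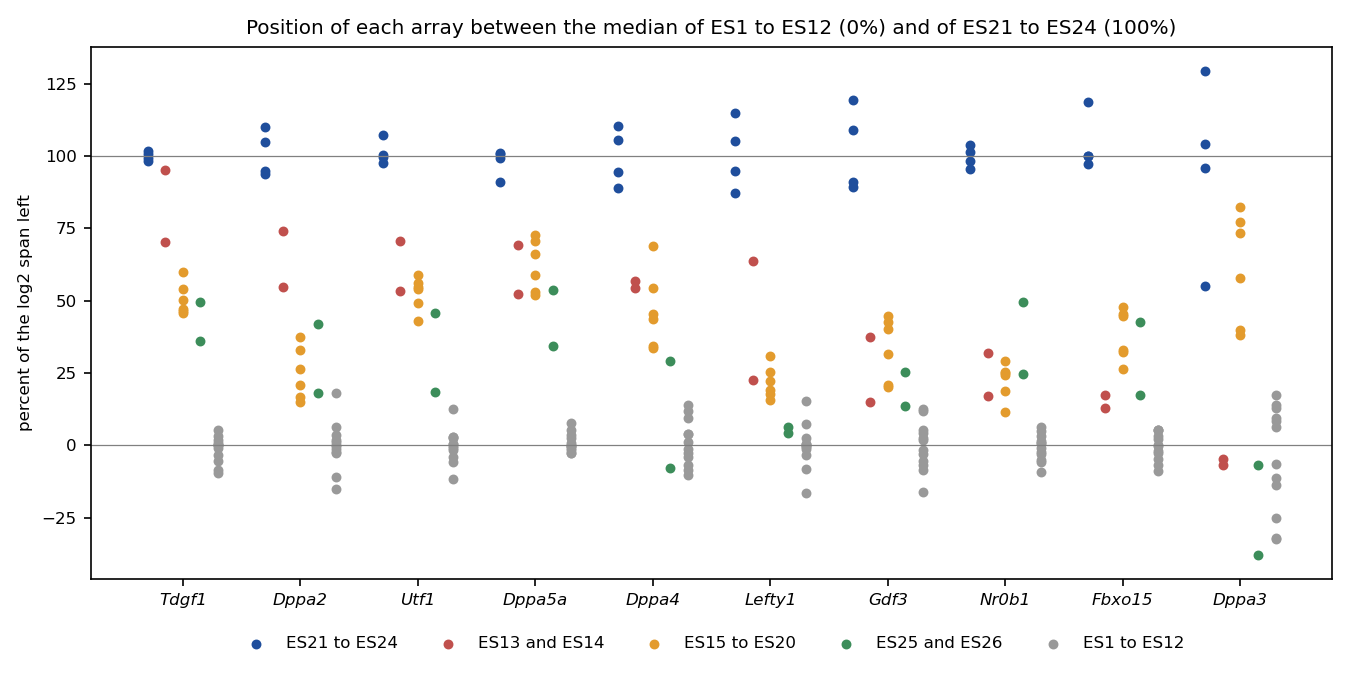
Each point is 1 array, placed by the percent of the log2 span left (y axis, 0% at the median of ES1 to ES12 and 100% at the median of ES21 to ES24) for each of 10 genes (x axis), coloured by title run. Tdgf1 in ES13 stands at 95.3%, Fbxo15 in ES13 at 17.3%.

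Dppa3 and Gdf3 are neighbours on chromosome 6. Dppa3 was 5.76, 6.90, 7.85 and 7.14 in ES21 to ES24, 4.00 in ES13, 4.06 in ES14, 4.01 in ES25 and 3.13 in ES26. It lay between 5.28 and 6.52 (median 6.05) in ES15 to ES20 and between 3.28 and 4.69 (median 4.20) in ES1 to ES12. ES13, ES14 and ES25 fell inside the range of ES1 to ES12 and ES26 below it, while ES15 to ES20 lay above that range and overlapped ES21 to ES24.

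Gdf3 was 9.21, 9.13, 10.53 and 10.06 in ES21 to ES24, 6.73 in ES13, 5.68 in ES14, 5.62 in ES25 and 6.16 in ES26. It lay between 5.93 and 7.06 (median 6.65) in ES15 to ES20 and between 4.23 and 5.57 (median 4.99) in ES1 to ES12. All arrays outside ES21 to ES24 held 44.7% of the span or less, and the runs ES13 and ES14, ES15 to ES20, and ES25 and ES26 overlapped. The next gene of the locus among those examined, Nanog, was 10.79 to 11.49 in ES21 to ES24, 8.65 to 9.28 in ES13 and ES14, 8.31 to 9.16 in ES15 to ES20, 7.20 to 8.09 in ES25 and ES26 and 5.82 to 6.52 in ES1 to ES12. Slc2a3, a glucose transporter gene of the same region, was 11.73 to 12.65 in ES13 to ES24 and 7.91 to 9.23 in ES25 and ES26, and 7.95 to 11.75 in ES1 to ES12. Apobec1, beside Gdf3, was 7.63 to 9.36 in ES1 to ES12, 5.26 to 8.81 in ES15 to ES20, 6.21 to 6.84 in ES21 to ES24, 4.43 to 5.60 in ES25 and ES26 and 3.33 to 4.77 in ES13 and ES14. Neither passed by strain label (limma adjusted p = 0.215 and 0.239).

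Dppa4, the neighbour of Dppa2 on chromosome 16, was close to its ES1 to ES12 level in ES25. It was 8.98, 9.15, 9.52 and 9.68 in ES21 to ES24, 7.90 in ES13, 7.82 in ES14, 5.74 in ES25 and 6.97 in ES26. It lay between 7.13 and 8.31 (median 7.49) in ES15 to ES20 and between 5.66 and 6.47 (median 6.01) in ES1 to ES12. ES13 and ES14 were within the range of ES15 to ES20, and ES25 and ES26 below both, with ES25 inside the range of ES1 to ES12. Unlike Dppa2, Dppa4 thus had no gap between ES13 to ES14 and ES15 to ES20; the difference between these genes was not tested.

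Dppa5a was 12.66, 12.52, 12.62 and 11.84 in ES21 to ES24, 10.12 in ES13, 8.78 in ES14, 7.34 in ES25 and 8.87 in ES26. It lay between 8.74 and 10.39 (median 9.59) in ES15 to ES20 and between 4.38 and 5.21 (median 4.61) in ES1 to ES12. ES15 to ES20 held 52% to 72.7% of the span and overlapped ES13 and ES14 (69.3% and 52.4%), and ES25 was the lowest array after ES1 to ES12 at 34.3%.

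Lefty1 was 10.08, 10.55, 10.97 and 9.74 in ES21 to ES24, 8.72 in ES13, 6.90 in ES14, 6.08 in ES25 and 6.19 in ES26. It lay between 6.58 and 7.26 (median 6.81) in ES15 to ES20 and between 5.17 and 6.57 (median 5.90) in ES1 to ES12. ES13 stood at 63.9%, far from ES14 at 22.6%, and both ES25 and ES26 lay inside the range of ES1 to ES12.

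Across the members, ES25 and ES26 lay below both ES13 and ES14 for 5 of 10 genes (Dppa2, Dppa4, Utf1, Tdgf1 and Lefty1; 22.4% of all genes), and above them for Fbxo15 alone (32.4% of all genes), where ES25 was 4.71 and ES13 4.70 and which no other gene summary or centred arrays kept. They lay below all of ES15 to ES20 for Dppa3, Dppa4 and Lefty1 (16.9% of all genes), and above all of them for no member (19%). Every array of ES1 to ES12 was below ES13 and ES14 in 9 of 10 members (16% of all genes; not Dppa3), below ES15 to ES20 in 9 (12.5%; not Dppa2) and below ES25 and ES26 in 7 (16.4%; not Dppa3, Dppa4 or Lefty1). The exceptions of Dppa2 and Dppa4 depend on the gene summary. Those of Dppa3 and Lefty1 stayed with the median and the mean over all probe sets and with centred arrays. With the median over every probe set Dppa2 in ES15 to ES20 lay above ES1 to ES12, Dppa4 in ES25 and ES26 did too, and Dppa2 and Gdf3 in ES25 and ES26 no longer did; Dppa2 in ES25 was level with the highest of ES1 to ES12 at 2 decimals, 5.62.

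The paired arrays of a run differed from each other in these genes. ES26 was above ES25 by at least 1 log2 unit in 7 of 10 members (Dppa2, Dppa4, Dppa5a, Utf1, Tdgf1, Nr0b1 and Fbxo15), against 1.73% of all genes. ES13 was above ES14 by at least 1 unit in 7 of 10 (Dppa2, Dppa5a, Utf1, Tdgf1, Gdf3, Lefty1 and Nr0b1), against 1.57%, and in 5 without Gdf3 and Nr0b1 when all probe sets entered the gene value. In ES15 to ES20, Dppa3, Dppa5a, Gdf3 and Fbxo15 were higher in each of ES18 to ES20 than in each of ES15 to ES17, as were 16.5% of all genes, and Dppa2 was highest in ES15 (6.78) and ES16 (6.51).

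Single probe sets showed how far a gene's value stands for its exons. Of the 76 member probe sets, 63 were lower in 129S2/SvPas as labelled (limma adjusted p below 0.05) and 0 higher, against 14.6% of all probe sets called lower, and 67 had every array of ES1 to ES12 below every array of ES21 to ES24 (8.39% of all probe sets). All probe sets of Dppa5a (4), Utf1 (4), Tdgf1 (7), Nr0b1 (4) and Fbxo15 (13) were called lower, as were 8 of 10 for Dppa2, 9 of 10 for Dppa4, 6 of 7 for Lefty1, 3 of 4 for Gdf3 and 5 of 13 for Dppa3.

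Dppa4 and Dppa3 were the genes whose probe sets differed most in span. The brightest Dppa4 probe set was 8.10 to 9.35 in ES1 to ES12 and 9.03 to 10.67 in ES21 to ES24, a span of 1.00 between medians. A dimmer one, outside the gene value, was 1.85 to 3.16 in ES1 to ES12, 2.72 in ES25, 5.99 in ES26, 8.56 in ES13, 8.40 in ES14 and 9.43 to 10.23 in ES21 to ES24, a span of 7.35. When all probe sets of Dppa4 entered the median, its strain label difference was -3.66 in place of -1.66 (-2.60 with their mean), and ES13 and ES14 held 75.2% and 74.9% of its span. For Dppa3 the 2 brightest probe sets spanned 0.33 and 0.76, the fifth brightest spanned 4.60, and 6 dim ones spanned at most 0.96. Few Dppa3 probe sets thus separate the runs, and its strain label difference was -0.81 with the mean and -1.85 with the median of all of them, against -1.80.

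**Figure D4:**
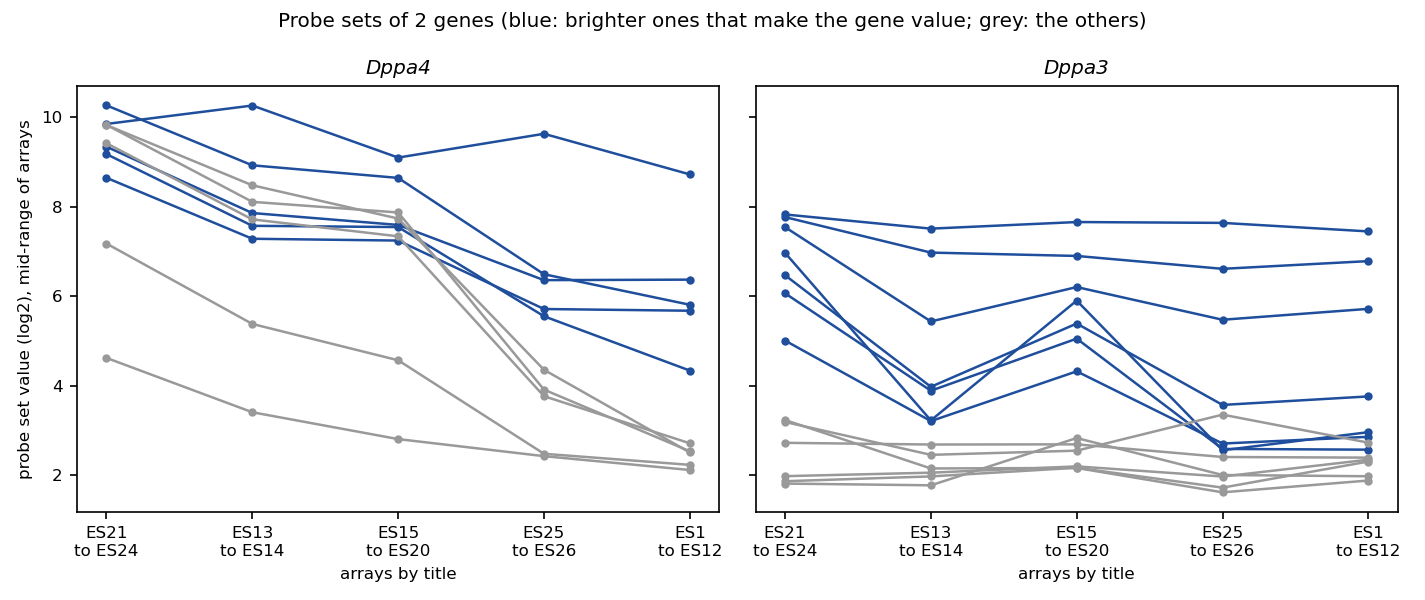
Each line is 1 probe set of Dppa4 or Dppa3, at the middle of its range (y axis, log2) over the arrays of each title run (x axis); blue lines make the gene value and grey ones do not. The brightest Dppa4 probe set spans 1.00 while the dimmer one described above spans 7.35, with grey lines low at ES25, ES26 and ES1 to ES12.

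Tdgf1, Gdf3 and Lefty1 belong to the Nodal pathway, in which a ligand cut by convertases binds activin receptors with a co-receptor and acts through Smad proteins and Foxh1. Of 27 other tested genes of the pathway, 11 were lower and 2 higher by strain label, with a median difference of -0.45, where 22.1% of all genes were lower and 21.1% higher. Without ES13 and ES14, 17 were lower (25.2% of all genes). Without ES1 to ES12, 0 were lower at an unadjusted p below 0.05 by limma and 7 were higher (Acvr2b, Cfc1, Foxh1, Eomes, Mixl1, T and Fgf8), of which Mixl1 was the gene that passed adjustment. Of all 18341 genes, 1276 were lower and 538 higher at that unadjusted threshold. Inhibitors were lower in 5 of 7 cases, led by the co-repressor Tgif2 (-1.73 ± 0.29, SE; limma adjusted p = 2.62e-05) and the inhibitory Smad7 (-1.25 ± 0.21, SE; limma adjusted p = 3.26e-05). Among receptors, Acvr2a (-1.46 ± 0.23, SE; limma adjusted p = 1.24e-05) was 1 of 2 lower genes out of 5. The activin subunit Inhba was higher (1.40 ± 0.48, SE; limma adjusted p = 0.02). Of 6 target genes, 1 was lower (Foxa2), a share near the 22.1% of all genes.

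Nodal and Foxh1, named after their values were seen, did not pass by strain label (limma adjusted p = 0.0582 and 0.0737). Nodal was 7.39 to 8.24 in ES21 to ES24, 6.57 to 7.10 in ES13 and ES14, 6.07 to 6.80 in ES15 to ES20, 6.25 to 6.28 in ES25 and ES26 and 5.61 to 6.51 in ES1 to ES12. Foxh1, the DNA-binding partner of Smad2, was highest in ES13 and ES14, at 9.58 to 9.80, against 7.30 to 8.50 in ES21 to ES24, 6.43 to 8.90 in ES15 to ES20 and 5.57 to 5.69 in ES25 and ES26. Among the 6 target genes, also named after their values were seen, Eomes was 8.67 to 10.50, Mixl1 8.93 to 10.95 and T 9.81 to 11.79 in ES13 and ES14, against at most 7.58, 6.99 and 9.68 in the other arrays. The others overlapped between ES13 to ES14 and ES21 to ES24: Gsc was 6.73 to 7.48 against 7.03 to 7.13, Fgf8 7.72 to 8.12 against 7.50 to 7.97 and Foxa2 6.35 to 6.68 against 6.55 to 7.06. Foxa2 was highest in ES25 and ES26 (7.26 to 7.85). Eomes, Mixl1, T and Gsc are also primitive streak markers averaged above, so their values are not a separate result. In ES13 and ES14, Tdgf1 was 11.85 and 9.99 and Gdf3 6.73 and 5.68.

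**Figure D5:**
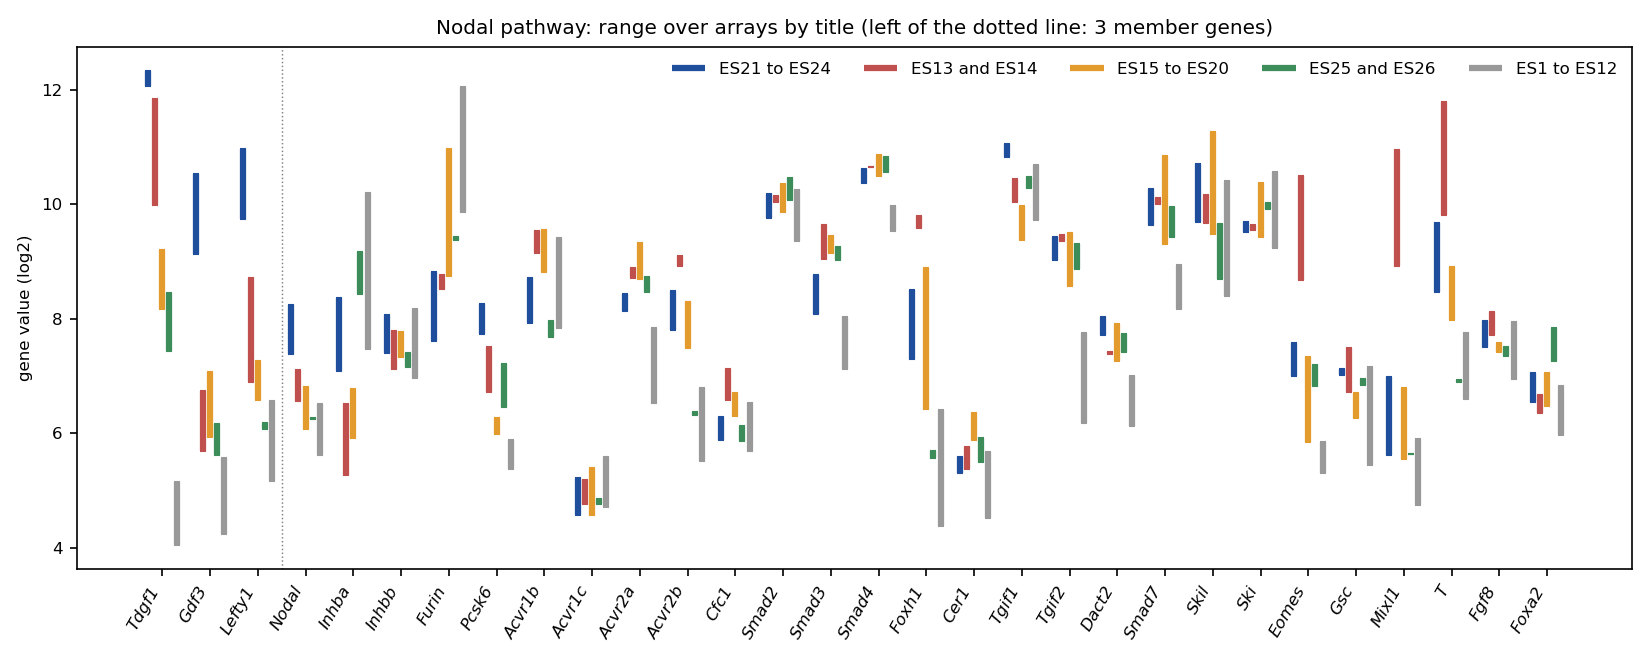
Bars give the range of the gene value (y axis, log2) over the arrays of each title run, by colour, for Tdgf1, Gdf3 and Lefty1 and for 27 other genes of the Nodal pathway (x axis). Mixl1 and Eomes reach 10.95 and 10.50 in ES13 and ES14.

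Related gene lists, chosen with results of these data known, are counted from the same limma fit and read beside the 22.1% of all genes lower and 21.1% higher. Of 23 pluripotency transcription factor genes 17 were lower and 0 higher by strain label (median -1.46), led by Zfp42 (-3.99), Sox2 (-3.26), Pou5f1 (-2.97) and the imprint-keeping factor Zfp57 (-2.77). The naive ES cell markers above are all among these genes, so the 2 counts are not separate results. Of 15 primed epiblast genes 8 were lower and 0 higher (median -0.96), led by the claudin gene Cldn6 (-3.26), Nes (-2.74), Sox4 (-1.74) and Igfbp3 (-1.68). Of 24 listed early embryo and germline genes 16 were tested, and 10 were lower and 0 higher (median -0.68). Tfap2c (-1.98), the piRNA pathway gene Tdrd12 (-1.62), the synaptonemal complex gene Sycp3 (-1.06) and the helicase gene Ddx4 (-0.90) led them. The early embryo genes Zscan4c, Zscan4d, Zscan4f, Zfp352, Tcstv1 and Tcstv3 were not among those tested. Tdpoz4, which was tested, did not pass (-0.11, limma adjusted p = 0.679). The count of lower genes was 6 without ES23, 6 without ES24, and 6 with arrays centred on their median.

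Paralogs, partners and neighbours of the members formed a further list. Of 18 tested genes 7 were lower and 2 higher (median -0.06), again beside 22.1% and 21.1% of all genes. Nanog (-2.65), Skp1 (-0.77), the F-box gene Fbxo16 (-0.77) and Ooep (-0.68), an oocyte relative of Dppa5a, led the lower ones. Nanog is also counted among the pluripotency transcription factor genes. Skp1, Cul1 (-0.38) and Rbx1 (-0.48), which form the ligase that F-box proteins join, were all lower. The Tdgf1 paralog Cfc1 (-0.05), the Nr0b1 paralog Nr0b2 (0.29) and Dppa1 (0.08) did not pass. Ooep was 8.35 to 8.87 in ES21 to ES24 and 6.37 to 7.24 in all other arrays.

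The genes whose profiles were most like a member's were found by the root mean square difference over the 26 arrays, each profile centred on its own mean. Outside the set, the 3 nearest genes of both Utf1 and Tdgf1 were Trh (0.43 and 0.88 log2 units), which encodes the precursor of thyrotropin-releasing hormone, Pou5f1, the gene of Oct4 (0.60 and 0.85), and Klhl13 (0.73 and 0.92). Nr0b1 and Fbxo15 were nearest to Zfp42 (0.52 and 0.57) and the nuclear receptor gene Esrrb (0.82 and 0.63), followed by Rex2 (0.91) for Nr0b1 and Enpp3 (0.81) for Fbxo15. Gdf3 was nearest to Pipox (0.40), Nr5a2 (0.43) and Tfcp2l1 (0.44), and Lefty1 to Pipox (0.38), Mcf2 (0.45) and Capsl (0.48). Dppa5a was nearest to Klhl13 (0.74), Trh (0.90) and Bex1 (1.02), Dppa2 to Rex2 (0.60), L1td1 (0.64) and Gng3 (0.69), Dppa4 to Fxyd6 (0.36), Chmp4c (0.41) and Mpzl2 (0.44), and Dppa3 to Enox1 (0.64), Clvs2 (0.66) and Lama1 (0.69). Among the members, Utf1 and Tdgf1 were 0.65 apart and Nr0b1 and Fbxo15 0.71 apart. Nr0b1 had 8 other members among its 100 nearest genes, Dppa3 had 1 and Dppa4 had 0. This distance depends on the size of a gene's changes, and Dppa3 and Dppa4 had the smallest spans among the members (2.83 and 3.33). The part of the gene summary in their counts was not tested.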

How the data were processed

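RNA from 26 samples was amplified in 2 rounds and hybridised to Affymetrix Mouse Exon 1.0 ST arrays, per the labels' protocols. Per the labels, the authors deposited RMA values made with Expression Console at its extended-exon level (version not given in the sources used here), taken as log2 from RMA convention and their range, 0.83 to 15.6. RMA normalizes between arrays, so a global shift in RNA would be lost. The number of arrays limits the precision. No pair of arrays was identical.

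Platform annotation gave 1 symbol for 48.4% of probe sets, updated through RefSeq (GRCm38.p6). All 10 members had at least the 4 probe sets required. A further probe set names Dppa5a with another gene and was not used. Strain labels were compared by limma (version 3.58.1, R 4.3.3; a trended eBayes after lmFit, two-sided, Benjamini-Hochberg over all genes or probe sets, threshold 0.05), 14 against 12 arrays, with the direction 129S2/SvPas minus C57BL/6. On simulated data with 18341 genes, the fit called 50% of those shifted by 0.5 log2 units, 80% at 1, 98% at 2 and 100% at 4, with 8 false calls. The simulation drew independent normal errors around each gene's mean, without title runs or shared cultures, so these rates need not hold for these data.

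The members, lists, title runs and tests were chosen with earlier results of these data known. Named genes were the members, the 4 genes of each list that differed most among those past the threshold, the paralog list, and the 3 genes nearest to each member without a provisional name. Nodal, Foxh1, the Nodal target genes, Tdpoz4, the single cell type markers and the single probe sets of Dppa4 and Dppa3 were described after their values were seen. Alternatives covered the gene summary, filters, scaling, eBayes settings, thresholds and arrays left out.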

Additional observations from a re-analysis of the deposited data

How the results depend on the processing

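The count of 10 members lower held when all probe sets entered the gene value, as a median or a mean, with a minimum of 2 probe sets, centred or quantile-normalized arrays, no trend, robust eBayes, array weights, a threshold of 0.01, without ES13 and ES14, and at 10 to 10 with each array left out in turn. With the brighter 50% of genes only, 3 members could be tested and 3 were lower. Testing against a difference of at least 1 log2 unit left 5 of 10 members, with 9 at an unadjusted p below 0.05. Without ES1 to ES12, 0 of 10 passed, and Dppa2 (0.80) and Tdgf1 (1.27) changed sign.

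The same 3 settings lowered the other counts of lower genes, while array weights raised the Nodal pathway count from 11 to 16 and the primed epiblast count from 8 to 12, as did the median over all probe sets for the latter. The brighter 50% of genes gave 6 for the Nodal pathway, 11 for transcription factors, 4 for paralogs and partners, 0 for the early embryo and germline list (2 genes tested, 0 at an unadjusted p below 0.05) and 3 for primed epiblast genes, with 39 for probe sets of members, and fewer genes were tested there. The minimum difference of 1 gave 0 (2 unadjusted), 7, 1, 0 (1 unadjusted) and 3 by limma, and 26 probe sets. Without ES1 to ES12, limma called 0 lower in each of these lists, with 0, 3, 2, 0 and 0 lower and 7, 1, 1, 0 and 2 higher at an unadjusted p below 0.05 (Mixl1 passing adjustment), and 0 member probe sets (3 unadjusted). Of all 18341 genes, 1276 were lower and 538 higher unadjusted in that fit. Without ES13 and ES14, the Nodal pathway count was 17. The early embryo and germline count was 6 with centred arrays and 5 at a threshold of 0.01; the cause was not tested. Leaving out each array gave 11 to 15 for the Nodal pathway, 17 to 17 for transcription factors, 7 to 8 for paralogs and partners, 6 to 12 for the early embryo and germline list and 7 to 9 for primed epiblast genes.

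The order of the title runs was also computed with the median and the mean over all probe sets and with centred arrays, settings chosen after the data were seen. ES25 and ES26 were below ES13 and ES14 in 6, 7 and 7 members in place of 5, and above them in 0, 0 and 0 in place of 1. ES1 to ES12 were below ES15 to ES20 in 10, 10 and 8 in place of 9, and below ES25 and ES26 in 6, 7 and 6 in place of 7. ES15 to ES20 were below ES21 to ES24 in 9, 10 and 9 in place of 9. ES13 was above ES14 by 1 unit in 5, 5 and 7 and ES26 above ES25 in 7, 7 and 6, each in place of 7, and ES18 to ES20 were above ES15 to ES17 in 3, 4 and 4 in place of 4. The other run comparisons kept their counts and members. No paired analysis was possible because the labels give no replicate numbers shared between the strains.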
